A study of Mus musculus with 2 samples.

Results

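The genes described here are 6 galectins, Lgals1, Lgals3, Lgals4, Lgals7, Lgals8 and Lgals9, and Lgals3bp, which encodes a secreted glycoprotein that galectins bind. They were chosen by name, with their levels in the anagen II-III library known, and all 7 were found among the 42392 gene IDs of the deposited table. The library was made from hair follicle stem cells, the epithelial cells of the follicle bulge from which the hair regrows at each cycle. The cells came from skin of female mice with the genotype K15-CrePGR; Shh+/-, in which a Cre fused to a progesterone receptor domain is expressed under the promoter of keratin 15, and Shh is heterozygous. RU486, which switches this kind of Cre on, was given for 8 days, and the sample is titled a control. Living cells were sorted for high integrin alpha 6 and for CD34, against SCA1 and against markers of fibroblasts, melanocytes and mast cells, endothelium and leukocytes. The series holds 2 samples, and the second one, in telogen with the same genotype and treatment, was not analysed here because no column name in the table matches it alone. The values are therefore those of 1 library with no replicate. They are given as TPM, transcript abundance corrected for gene length and for library size, on which genes can be set side by side, and no value carries an error or a test. The number of animals in the library is not given in the sources used here, and the depth of sequencing is unknown.

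Galectins are small proteins that bind beta-galactoside sugars through a conserved carbohydrate recognition domain. They are made in the cytosol, leave the cell without a signal peptide, and cross-link glycoproteins and glycolipids at the surface and in the matrix, and some also act inside the cell, where they mark damaged endosomes and lysosomes whose inner sugars are exposed. Galectin-1 and galectin-7 have a single such domain and can pair, galectin-3 joins its domain to a long flexible tail through which it forms larger assemblies, and galectins 4, 8 and 9 carry a pair of domains on 1 chain. Galectin-7 is known as a protein of stratified epithelia, keratinocytes above all, and its gene is also known as Pig1, a gene induced by p53.

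Lgals7 was by far the most abundant of these transcripts. The galectins fell into 3 tiers of level, with Lgals3bp below them. Lgals7 stood at 2037 TPM, Lgals1 at 269 TPM and Lgals3 at 174 TPM. The tandem-repeat genes followed closely spaced, with Lgals9 at 16.6 TPM, Lgals8 at 15.4 TPM and Lgals4 at 10.3 TPM, and Lgals3bp was lowest at 2.53 TPM. Together the 7 genes summed to 2524 TPM, and Lgals7 alone held 80.7% of that sum. Lgals1 held 10.6% and Lgals3 6.88%. All 7 were at 1 TPM or more, a level that 56.0% of the 20773 nuclear protein-coding genes reached, and the members were chosen with these levels known. The median over the 7 members was 16.6 TPM, beside 2.44 TPM over all nuclear protein-coding genes and 12.5 TPM over the 11638 of them at 1 TPM or more.

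**Figure D1:**
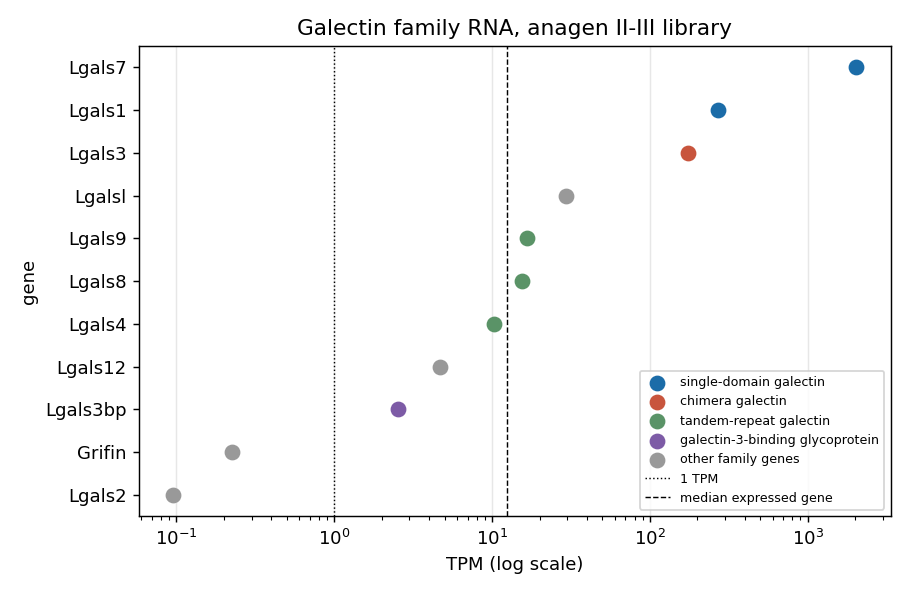
TPM (log scale, horizontal axis) of the 7 members and of 4 other galectin family genes (vertical axis) in the anagen II-III library, 1 point a gene, coloured by the build of the protein. Lgals7 lies at 2037 TPM, Lgals1 and Lgals3 at 269 and 174 TPM, and the other members between 2.53 and 16.6 TPM. The dotted line is 1 TPM and the dashed line the median of expressed protein-coding genes, 12.5 TPM.

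Lgals7 (ENSMUSG00000053522, chromosome 7, 28863796 to 28866285 on GRCm38) was the 16th highest of all nuclear protein-coding genes. Its level was 163 times the median of the expressed protein-coding genes. Of the 15 genes above it, 8 carry symbols of ribosomal protein genes. These were picked by symbol and include Rps27rt and Rpl34-ps1, whose symbols mark them as copies. With genes of such symbols set aside, Lgals7 was the 8th. Genes near it by level were Rps9 at 2037 TPM above, and Rpl36 at 2012 TPM and Tma7-ps at 2012 TPM below. Rps9 and Rpl36 encode ribosomal proteins, and such genes have many near-identical copies, so their own values are uncertain. With 1 library there is no pattern over conditions to compare, so these genes are alike in level only.

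Set against the keratins that define the cells, Lgals7 was of the same order. It was 1.39-fold above Krt14, the type I keratin of basal keratinocytes, which stood at 1464 TPM. It was 0.605 of the level of Krt15, the bulge keratin, at 3364 TPM, and 0.531 of that of Krt5, the type II partner of Krt14, at 3833 TPM. Against other basal and bulge genes it was 5.11-fold above Col17a1, a hemidesmosomal collagen, 12.6-fold above the transcription factor gene Trp63, and 15.5-fold above Cd34, a surface protein used in the sort. The markers of the labelled cell type were present: all 8 bulge genes were above the median of expressed genes, as were 28.0% of all nuclear protein-coding genes, from Nfatc1 at 16.1 TPM to Krt15. Between these lay Tcf7l1 at 36.7 TPM, Sox9 at 52.1 TPM, Lgr5 at 63.9 TPM, Itga6 at 99.4 TPM, Cd34 at 132 TPM and Lhx2 at 171 TPM. Cd34 and Itga6 encode proteins the cells were sorted for, and the list was chosen with earlier results known. The count therefore describes the list and does not test the identity of the cells. Galectin-7 is also made above the basal layer, and genes of suprabasal keratinocytes were present in the same library. Krtdap stood at 769 TPM, Sbsn at 359 TPM, Krt10 at 138 TPM, Krt1 at 33.0 TPM, Ivl at 7.58 TPM and Lor at 6.77 TPM. Lgals7 was 2.65-fold above Krtdap, the highest of these 6 genes, and the part of such cells in its level was not tested. In such a bulk library, fewer cells of a type and less RNA per cell cannot be told apart.

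Lgals1 (ENSMUSG00000068220, chromosome 15, 78926725 to 78930465), the other single-domain gene, was 7.58-fold below Lgals7 and still the 245th highest protein-coding gene, above 97.9% of those expressed. Galectin-1 binds laminin and beta 1 integrins, and mesenchymal cells make much of it. The fibroblast genes of the library ranged widely. Col3a1 stood at 287 TPM, Col1a1 at 278 TPM and Col1a2 at 237 TPM, close to Lgals1, while Dcn was at 63.9 TPM, Lum at 11.8 TPM and Pdgfra, which encodes the CD140a excluded by the sort, at 1.44 TPM. The part of fibroblast RNA in the level of Lgals1 was not tested. Lgals1 has processed pseudogenes, of which Lgals1-ps2 stood at 2.40 TPM and Lgals1-ps1 was listed at 0. It also overlaps the annotated gene Gm30368, and how reads over both were assigned is not stated in the labels.

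Lgals3 (ENSMUSG00000050335, chromosome 14, 47373860 to 47386167) was the 381st highest, above 96.7% of expressed protein-coding genes. Galectin-3, also called Mac-2, is made by many epithelia and by macrophages, and in keratinocytes it is known for its part in wound closure. Lgals1 exceeded it 1.55-fold, a step that has no replicate error to be judged by. The 2 genes just above it by level were Cstb at 176 TPM and Sostdc1 at 174 TPM, and the 2 just below it were Oxct1 at 172 TPM and Lhx2 at 171 TPM. Lhx2 is a bulge transcription factor and Sostdc1 a secreted antagonist of BMP and Wnt signals. Macrophage and leukocyte genes were far lower than Lgals3. The highest of the 7 listed was Cd74 at 13.2 TPM, followed by Lyz2 at 10.02 TPM, C1qa at 5.11 TPM, Tyrobp at 3.42 TPM and Cd68 at 2.62 TPM, while Adgre1 and Ptprc stood at 0.326 and 0.264 TPM. Lgals3 was thus 13.2-fold above Cd74 and 66.1-fold above Cd68. These 7 genes summed to 35.0 TPM. Leukocyte markers were sorted against, and the part of macrophage RNA in the level of Lgals3 was not tested.

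**Figure D2:**
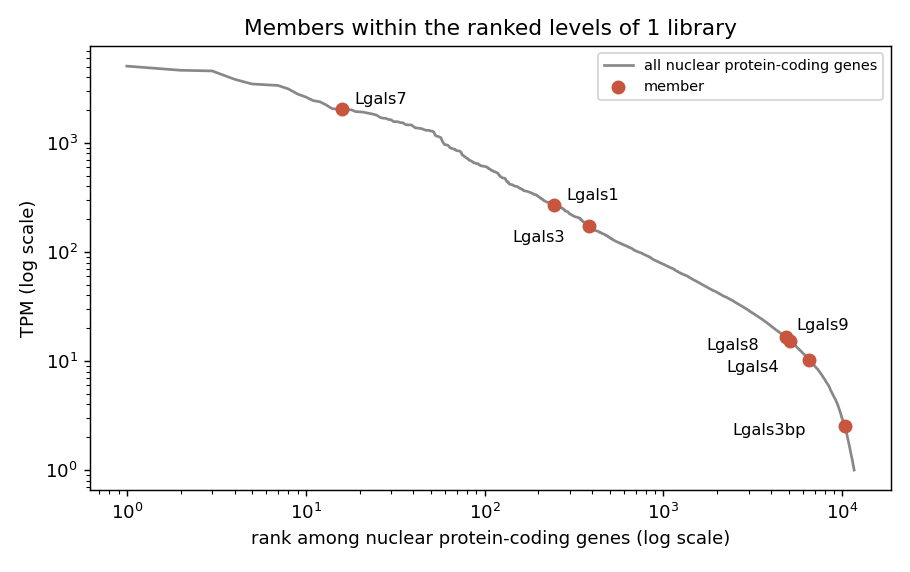
TPM (log scale, vertical axis) against rank (log scale, horizontal axis) for the 11638 nuclear protein-coding genes at 1 TPM or more in the anagen II-III library (line), with the 7 members as points. Lgals7 lies at rank 16, Lgals1 and Lgals3 at ranks 245 and 381, and the tandem-repeat genes between ranks 4836 and 6524.

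The 3 tandem-repeat genes lay near the middle of the expressed genes and near each other. Lgals9 (ENSMUSG00000001123, chromosome 11, 78962979 to 78984924) was above 58.5% of expressed protein-coding genes, Lgals8 (ENSMUSG00000057554, chromosome 13, 12439402 to 12464977) above 56.4% and Lgals4 (ENSMUSG00000053964, chromosome 7, 28833122 to 28841710) above 43.9%. Their levels summed to 42.3 TPM. Lgals9 was 1.08-fold above Lgals8 and 1.61-fold above Lgals4, and no replicate error was to be had by which to judge that order. Lgals7 was 123-fold above Lgals9, 132-fold above Lgals8 and 198-fold above Lgals4. Galectin-9 is known as a ligand of the T cell receptor TIM-3, galectin-8 binds integrins and marks damaged vesicles, and galectin-4 is best known from the gut lining. The gut epithelial genes were at or near 0, with Muc2 at 0.156 TPM, Fabp2 at 0.0455 TPM, Vil1 at 0.0113 TPM and Cdh17 listed at 0, while Lgals4 stood at 10.3 TPM. Which cells the Lgals4 RNA came from was not tested. T cell genes were likewise low, with Cd3g at 0.800 TPM, Cd3e at 0.343 TPM and Trac listed at 0. Endothelial genes ranged from Kdr at 0.436 TPM to Plvap at 4.65 TPM, with Cdh5 at 1.66 TPM and Pecam1 at 2.01 TPM.

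Lgals3bp (ENSMUSG00000033880, chromosome 11, 118392747 to 118401959) encodes the Mac-2 binding protein, a secreted ligand of galectin-3 and galectin-1. It was above 11.4% of the protein-coding genes at 1 TPM or more, above 50.4% of all protein-coding genes and above 70.9% of all gene IDs. Lgals3, whose protein it is named for, was 68.5-fold higher. Another 4 family genes of the table were not among the members. Lgalsl, which encodes a galectin-like protein, stood at 29.5 TPM, above all 3 tandem-repeat members. Lgals12, known from fat cells, was at 4.71 TPM, the lens gene Grifin at 0.224 TPM and Lgals2 at 0.0958 TPM.

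Lgals4 and Lgals7 are neighbours on chromosome 7, with 22085 bases and no other RefSeq protein-coding gene between them. Their levels differed 198-fold. On the other side of Lgals7, Capn12, a calpain protease gene, stood at 0.173 TPM at a distance of 15179 bases. On the other side of Lgals4, Ech1, which encodes an enzyme of fatty acid breakdown, stood at 69.2 TPM at 882 bases. Lgals7 thus lay between 2 genes of far lower level, as the 16th highest protein-coding gene would beside nearly any neighbours. Lgals9 lay beside Nos2, the inducible nitric oxide synthase gene, at 0.0413 TPM, and Ksr1 at 1.52 TPM. Lgals3 lay between Mapk1ip1l at 17.0 TPM and the mitotic gene Dlgap5 at 11.4 TPM, and Lgals8 between Heatr1 at 5.80 TPM and Edaradd, an adaptor of ectodysplasin signalling, at 2.91 TPM. Lgals3bp was below both of its neighbours, the protease inhibitor gene Timp2 at 114 TPM and Cant1 at 16.7 TPM. Nol12 beside Lgals1 stood at 47.7 TPM, and Pdxp, on the other side of Lgals1, had no value under that name and was not counted. Over the 13 neighbour values, the member was the higher of the pair in 9 and the lower in 4, and the Lgals4 and Lgals7 pair counts once on each side. Over all protein-coding genes at 1 TPM or more, 65.4% of neighbour values were lower than the gene, so the count for the members is close to that background.

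**Figure D3:**
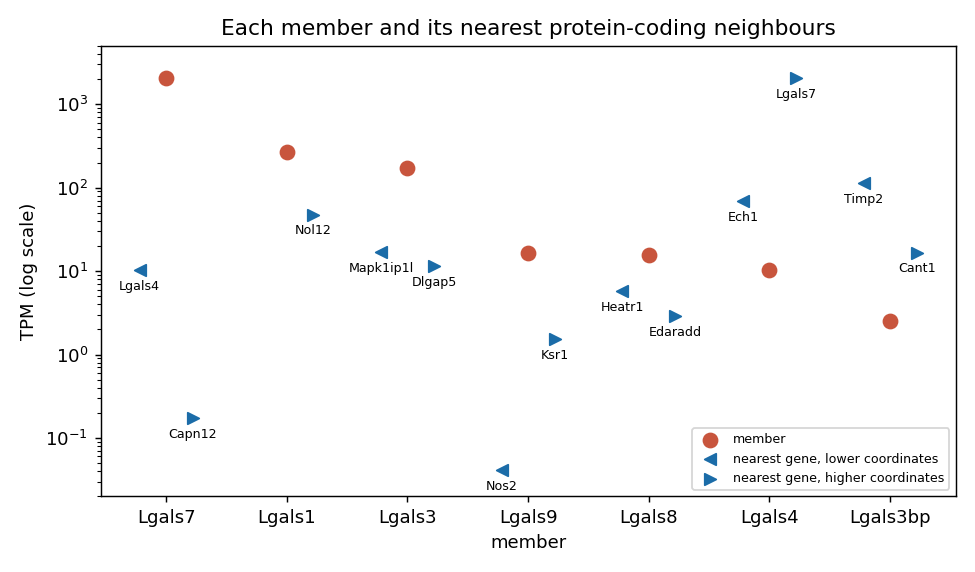
TPM (log scale, vertical axis) of each member (circles, horizontal axis) and of the nearest protein-coding gene at lower (left-pointing) and higher (right-pointing) coordinates in the anagen II-III library. Lgals7 lies above Lgals4 and Capn12, at 10.3 and 0.173 TPM, while Lgals4 and Lgals3bp lie below both neighbours.

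The bases before the transcription start are shown for the adjacent genes of unlike level, Lgals7 and Lgals4, and for Lgals3, whose window was the richest in GC. Each is the 250 bases before a RefSeq transcript start on GRCm38.p6, 5′ to 3′, with capitals marking a match on either strand to TATAAA (the TATA box), GGGCGG (the GC box), TGANTCA (the AP-1 site), CCAAT (the site of the factor NF-Y), CCACCC (a site of Kruppel-like factors) or the p53 family decamer. The RefSeq promoter table matched 6 of the 7 members, without Lgals1. That start lies 590 bases inside the annotated extent of Lgals7 and 672 bases inside that of Lgals4, whose windows therefore fall within the gene as annotated, while the window of Lgals3 ends where its gene begins. All 3 genes lie on the plus strand, at chr7:28864136-28864385 for Lgals7, chr7:28833544-28833793 for Lgals4 and chr14:47373610-47373859 for Lgals3.
Lgals7: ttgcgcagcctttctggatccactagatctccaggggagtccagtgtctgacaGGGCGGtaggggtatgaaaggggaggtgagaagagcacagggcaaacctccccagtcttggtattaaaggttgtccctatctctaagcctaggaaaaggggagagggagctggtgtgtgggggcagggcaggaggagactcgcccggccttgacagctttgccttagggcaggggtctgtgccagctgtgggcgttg
Lgals4: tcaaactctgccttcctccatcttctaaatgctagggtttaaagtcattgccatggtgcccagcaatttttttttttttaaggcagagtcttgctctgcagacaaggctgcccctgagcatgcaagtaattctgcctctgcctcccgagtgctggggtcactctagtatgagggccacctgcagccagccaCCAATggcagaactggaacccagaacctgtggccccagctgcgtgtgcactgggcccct
Lgals3: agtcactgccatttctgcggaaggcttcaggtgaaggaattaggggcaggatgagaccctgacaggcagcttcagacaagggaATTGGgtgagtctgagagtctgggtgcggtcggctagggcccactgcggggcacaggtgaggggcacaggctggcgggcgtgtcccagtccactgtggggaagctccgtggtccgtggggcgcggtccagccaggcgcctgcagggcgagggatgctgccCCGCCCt
The windows differed in GC content and in CpG pairs. Lgals7 had 58.8% GC and 5 CpG, Lgals4 53.6% GC and 2 CpG, and Lgals3 66% GC and 13 CpG, against medians of 52.4% and 6 over 32851 RefSeq windows of the same length. Lgals7 and Lgals3 each held 1 GC box, which begins 197 bases before the start in Lgals7 and 7 bases before it in Lgals3. That motif stood in 32.7% of all windows. CCAAT stood once in Lgals4, 59 bases before the start, once in Lgals3, 167 bases before it, and in 33.8% of all windows. The TATA box, the AP-1 site and the p53 family decamer had no match in these 3 windows, and stood in 12.4%, 6.75% and 7.13% of all windows. CCACCC, found in 28.1% of windows, had its single match among the 6 members in Lgals9. These matches describe letters in short windows and are not measured sites.

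Genes that build galectin ligands were expressed at middling levels, under the 3 highest galectins, as nearly all protein-coding genes were. Galectins bind N-acetyllactosamine, and more branches on an N-glycan offer more of it. Of 8 N-glycan branching genes, 7 were at 1 TPM or more, against 56.0% of all nuclear protein-coding genes, with a median of 10.8 TPM. Mgat2 stood at 28.8 TPM, Mgat1 at 19.9 TPM, Man2a1 at 15.9 TPM, Mgat4b at 14.9 TPM, Fut8 at 6.66 TPM, Mgat5 at 6.22 TPM, Mgat4a at 5.07 TPM and Mgat3 at 0.494 TPM. Mgat5 makes the branch best known for galectin binding, and Mgat3 adds the bisecting residue that blocks further branching.

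Of 8 genes that extend chains with N-acetyllactosamine, 6 were at 1 TPM or more, with a median of 10.2 TPM. Among all nuclear protein-coding genes, 56.0% were at that level. The galactosyltransferase genes B4galt1, B4galt3, B4galt4 and B4galt2 stood at 33.9, 25.0, 10.5 and 9.97 TPM, the I-branching enzyme Gcnt2 at 15.8 TPM and B3gnt2, the main poly-N-acetyllactosamine synthase, at 9.19 TPM. B3gnt3 and B3gnt5 were at 0.281 and 0.154 TPM. Sialic acid caps can block galectins, and of 8 capping genes 7 were at 1 TPM or more, with a median of 12.7 TPM. St3gal2 stood at 27.9 TPM, St3gal4 at 23.6 TPM and St6gal1, whose alpha 2,6 cap prevents galectin-1 binding, at 22.1 TPM. The sialic acid transporter gene Slc35a1 followed at 16.1 TPM, with Cmas at 9.26 TPM, St3gal1 at 8.98 TPM, St3gal3 at 6.25 TPM and St3gal6 at 0.597 TPM. All 6 O-glycan genes were at 1 TPM or more, with a median of 8.71 TPM. Galnt1 and Galnt2, which start O-glycans, stood at 33.6 and 31.8 TPM, the chaperone gene C1galt1c1 at 10.1 TPM, Galnt3 at 7.34 TPM, the core 1 enzyme C1galt1 at 4.05 TPM and the core 2 enzyme Gcnt1 at 2.60 TPM. None of these 30 enzyme, chaperone and transporter genes reached the level of Lgals3. Of all nuclear protein-coding genes, 98.2% lay below Lgals3, so nearly any list of this size would stand mostly or wholly under it. The glycan lists were chosen with earlier results of these data known, so their counts describe the lists only. These are RNA levels and do not measure glycans.

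Of 18 listed glycoproteins known to bind galectins, 17 were at 1 TPM or more, against 56.0% of all nuclear protein-coding genes, and 16 were above the median of expressed genes, against 28.0%. The list was drawn up with levels of some of its genes known and holds Itga6, which was used in the sort, so these counts describe the list and support nothing further. The list median was 92.3 TPM beside 2.44 TPM over all nuclear protein-coding genes. The highest were Cd9, a tetraspanin, at 510 TPM, P4hb, the surface disulfide isomerase bound by galectin-9, at 329 TPM, Bsg at 252 TPM and Cd63 at 244 TPM. Lgals7 was 3.99-fold above Cd9 and so above every gene of this list. It was above 99.93% of all nuclear protein-coding genes, so the same would hold for nearly any list. Some were named after their values were seen. Among these were Lamp1, the lysosomal membrane protein, at 189 TPM, the integrin genes Itgb1 at 135 TPM and Itga3 at 85.2 TPM, and the laminin gene Lama5 at 150 TPM. Another of these, the integrin gene Itga5, was lower, at 3.74 TPM. Cdh1, which encodes the E-cadherin that galectin-7 binds, stood at 77.6 TPM and Egfr at 37.2 TPM. The lowest was Havcr2, which encodes TIM-3, at 0.0461 TPM.

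Of 10 intracellular partners and sensors of damaged membranes, 9 were at 1 TPM or more, with a median of 16.6 TPM. Among all nuclear protein-coding genes, 56.0% were at that level. This list too was chosen with earlier results of these data known, so the count describes the list only. Hras, whose protein galectin-1 helps to hold at the membrane, stood at 251 TPM. The autophagy receptor genes Tax1bp1 and Sqstm1 stood at 88.1 and 65.0 TPM, and Pdcd6ip, which encodes the galectin-3 partner ALIX, at 40.6 TPM. Calcoco2, which encodes NDP52, the receptor that galectin-8 recruits, was listed at 0. Also named after their values were seen are Bcl2, a reported partner of galectin-7, at 6.89 TPM and Trim16, a partner of galectin-3, at 1.90 TPM.

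**Figure D4:**
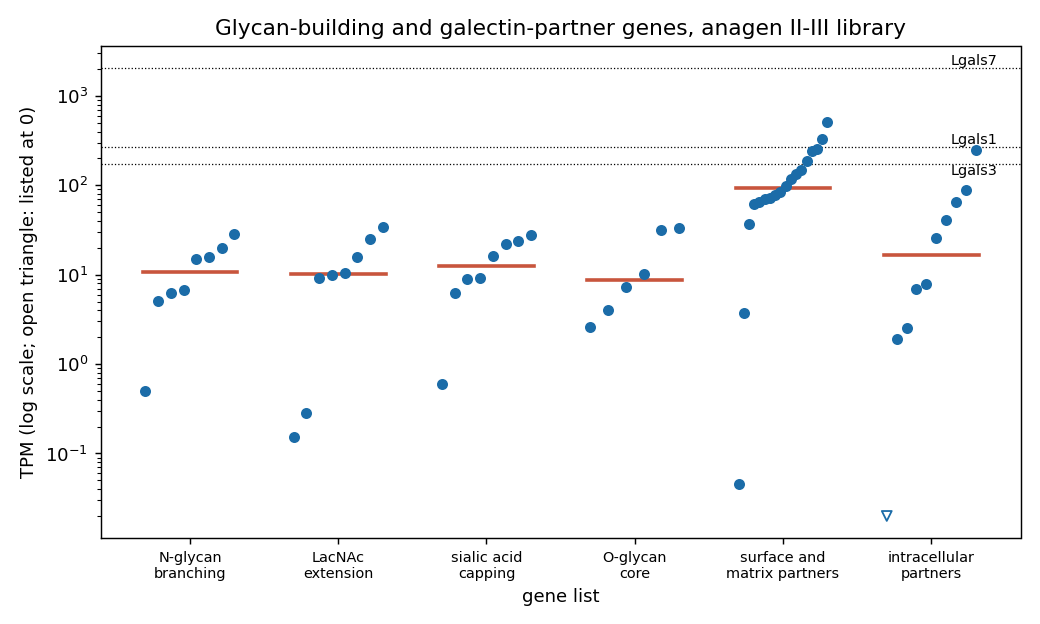
TPM (log scale, vertical axis) of each gene of 6 lists (horizontal axis) in the anagen II-III library, with the list median as a bar, a gene listed at 0 as an open triangle, and the levels of Lgals7, Lgals1 and Lgals3 as dotted lines. LacNAc stands for N-acetyllactosamine. List medians run from 8.71 TPM for O-glycan genes to 92.3 TPM for surface and matrix partners. Every gene lies under the line of Lgals7, as do 99.93% of all nuclear protein-coding genes.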

How the data were processed

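RNA-seq values of 1 library of sorted hair follicle stem cells in anagen II-III were used. The authors deposited TPM per gene, per the file headers. The submitters' processing notes name RSEM 1.2.30, Bowtie2 2.2.9 and the build mm10. The annotation used was not given in the sources used here. Of 12 columns of per-sample values, the one numbered 1 was matched by name to the sample titled with that number, and the other 11 were not used. The planned ratio of anagen to telogen was therefore not computed.

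The table's 42661 rows hold 42392 gene IDs. Each ID was used once, 160 standing on several rows, and a gene name table matched 41523 IDs and gave missing symbols. Where IDs shared a symbol, the higher value was taken. Gene types, positions and upstream sequences came from RefSeq on GRCm38.p6, the assembly also called mm10. Of all TPM, 47.8% belonged to nuclear protein-coding genes. A position is the percentage of nuclear protein-coding genes at 1 TPM or more that lie below a gene. Its arithmetic was checked against a second coding of the same formula, on the library's own values, shuffled and in part multiplied. The members and lists were chosen with earlier results of these data known. Named genes are the members, all genes of lists of at most 8, in larger lists up to 4 at 10 TPM or more and up to 2 under 0.1 TPM, the nearest protein-coding genes on either side of each member, and the 2 genes above and below Lgals7 and Lgals3 by level, of which 1 is not reported here. Lists of cell type markers were named in full. TPM depends on the library's total, so a few very abundant transcripts lower every other value. Other scalings, minimum levels and backgrounds were tried. Calculations used Python 3.11.15, pandas 2.3.3 and numpy 2.4.6, and plots matplotlib 3.10.9.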

Additional observations from a re-analysis of the deposited data

How the results depend on the processing

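The TPM scale moved with its denominator, and ratios and the order of the members cannot move with it. Rescaled over nuclear protein-coding genes, Lgals7 stood at 4257 TPM, and rescaled without mitochondrial genes and the 50 highest genes, of which it is one, at 3529 TPM. Each member has a single ID, so summing IDs with the same symbol could change none of them. The position of Lgals7 was 99.87% as reported, 99.83% among genes at 5 TPM or more, 99.93% with no filter on low values, 99.88% among all gene IDs, and 99.94% without ribosomal protein genes, the last chosen after seeing the data. The positions of the lower members moved more with the filter, from 26.03% among genes at 5 TPM or more to 68.6% with no filter for Lgals4, and for Lgals3bp from 11.4% as reported to 50.4% with no filter and 70.9% among all gene IDs. Without Lgals3bp, Lgals7 held 80.8% of the galectin sum. At a minimum of 5 TPM, 6 of the 7 members passed. Mgat4a, at 5.07 TPM, lay above only 24.5% of protein-coding genes at 1 TPM or more, so most of those genes pass too. The count describes the members only. The second rescaling multiplies values by 1.73 and a minimum of 0.5 TPM is looser than 1 TPM. All 7 members therefore had to pass under both, and those counts test nothing. A share weighted by protein length was not run, because no protein lengths were used here. No paired analysis was possible because 1 library was used and no result comes from a test. The unknown depth leaves every value without an interval.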
